A study of Caenorhabditis elegans with 2 samples.

Results

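Glycolysis is the chain of cytosolic enzymes that splits glucose into pyruvate, and lactate dehydrogenase can turn that pyruvate into lactate. In the first steps a hexose phosphate is isomerised, phosphorylated again and cut into triose phosphates, which costs ATP. In the later steps glyceraldehyde phosphate is oxidised and ATP is made. Several steps have more than 1 gene in Caenorhabditis elegans, so that close copies of an enzyme can be read by the same probes.

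The 10 genes described here, gpi-1, pfk-1.1, aldo-1, aldo-2, tpi-1, gpd-3, pgk-1, enol-1, pyk-1 and ldh-1, were taken by gene symbol from the table that pairs the array's probe sets with genes. Of these, 9 had at least 1 probe set that belonged to a single gene. They had 13 such probe sets, out of 22548 for worm transcripts on the array, and all 13 were measured on both arrays. For enol-1, the enolase gene, the table listed no probe set, so it has no value here. The array as a whole gave values for 9382 genes.

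The RNA came from whole wild-type N2 worms. The control group was grown without nanotubes, and the other group was raised on a-SWCNT at 500 μg/mL. The term stands for amide single-walled carbon nanotubes, hollow carbon cylinders with a wall of a single layer. Both groups were started as synchronised L1 larvae, were kept for 48 hr at 22 °C and carry the L4 stage label, the last larval stage. Each group had 1 array, so no value has an error between cultures and no p-value was computed. The values of whole animals do not separate fewer cells of a type from less RNA per cell.

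Each probe set gave a signal intensity, the brightness of a group of short probes for 1 transcript. The a-SWCNT array was dimmer by a factor of 2.50 and was multiplied by that factor before comparison, so every log2 ratio below, scaled a-SWCNT over control, is relative to the bulk of transcripts. A probe set counted as measured where its signal reached 56.7, the median of all worm signals on both arrays. The value of a gene is the mean log2 ratio over its measured probe sets, and 2-fold was the size used for counts. Among the 1626 genes that had exactly 2 measured probe sets, the log2 ratios of the pair differed by a median of 0.42, with a 95th percentile of 1.37. These gaps hold error within the arrays and any lasting difference between the probe sets themselves, and they do not measure differences between cultures.

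The transcripts of glycolytic enzymes were close to the bulk of the array. Of the 9 genes, 5 had ratios below 0 and 4 above, from -0.52 for aldo-1 to 0.37 for pgk-1, with a median of -0.04 beside -0.02 for all 9382 genes. Of those 9382 genes, 4890 were below 0. The count of members at least 2-fold lower was 0 of 9, where 2.86% of all genes were, and the count at least 2-fold higher was 0 of 9, where 1.42% of all genes were. At 1.5-fold the counts with this scaling were again 0 lower and 0 higher, beside 11.6% and 8.04% of all genes. In other settings 1 gene passed that size: aldo-1 on the lower side in 3 of the 5 other common-level scalings (-0.59 after quantile normalisation, -0.62 after loess centring, -0.69 at equal hybridisation controls), and pfk-1.1 on a side that depended on its probe set. The median of all genes in those 3 scalings was 0.05, 0.01 and -0.18. The shares of all genes past 1.5-fold given above are for the scaling used only. With shares this small, few or none of 9 genes would pass either size at the background rate, so the counts do not set the enzymes apart. By gene mean, all 9 lay in the middle 90% of genes (-0.84 to 0.70), and 5 of 9 in the middle 50% (-0.33 to 0.26). The mean of pfk-1.1 comes from probe sets at -1.04 and 0.74, each outside the wider band, and a probe set of tpi-1 at -1.07 is outside it too.

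**Figure D1:**
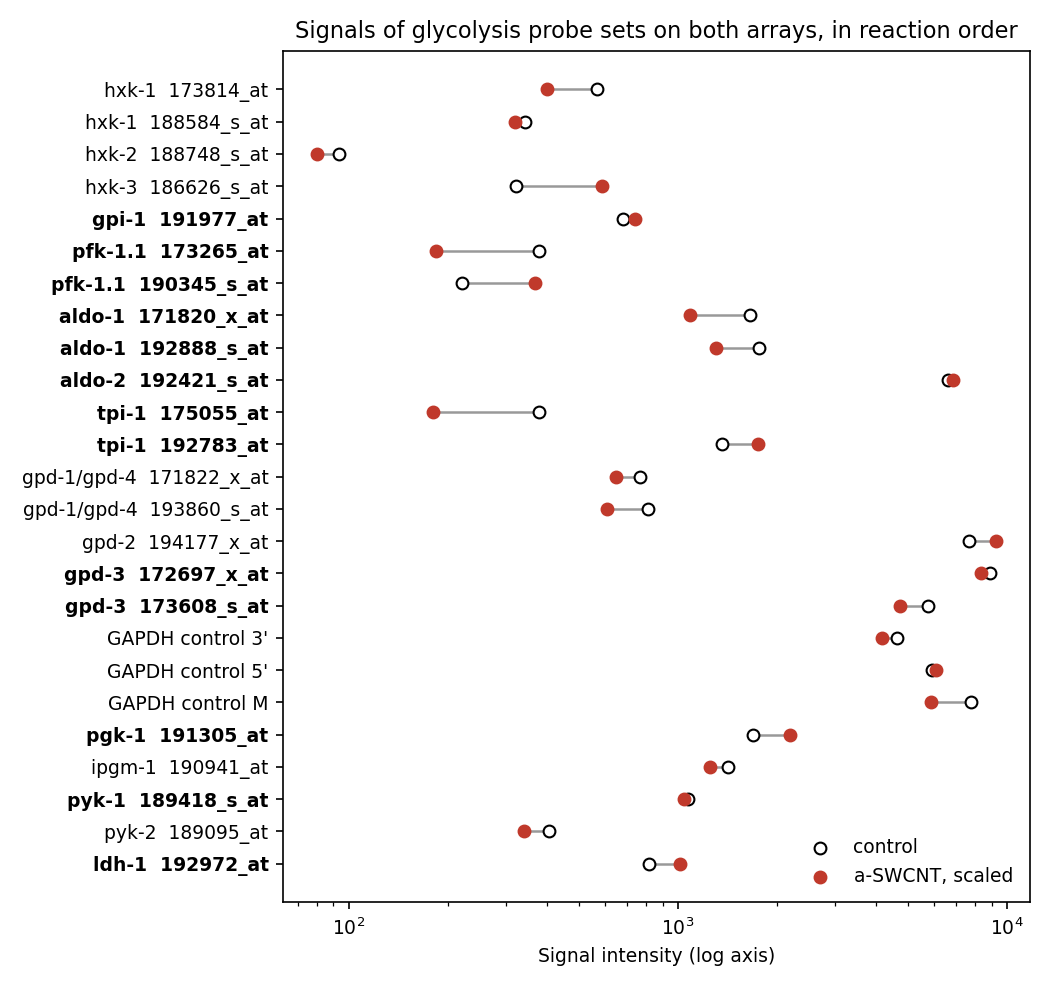
Signal intensity (log axis) of each glycolysis probe set on the control array (open circles) and on the scaled a-SWCNT array (red), 1 array per group, in reaction order from top to bottom; the members are in bold, and the probe sets shared by gpd-1 and gpd-4 and the manufacturer's GAPDH controls are included. The probe sets of pfk-1.1 and tpi-1 point both ways, while those of aldo-1 are both lower on the a-SWCNT array.

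Glucose phosphate isomerase, encoded by gpi-1, interconverts glucose and fructose phosphates. Its probe set gave 684 on the control array and 744 on the scaled a-SWCNT array, a log2 ratio of 0.12. The a-SWCNT value was the higher, by less than the usual gap between probe sets of a gene, and the sign turned when the arrays were scaled to equal hybridisation controls (-0.05).

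The phosphofructokinase gene pfk-1.1 encodes the enzyme of the committed step. Probe set 173265_at gave 378 in controls and 184 in exposed worms, 2.06-fold lower, with a log2 ratio of -1.04. Probe set 190345_s_at had 221 in controls and 368 in exposed worms, 1.67-fold higher, with a log2 ratio of 0.74. The probe sets thus disagreed in direction, by 1.78 in log2, a larger gap than in 98.9% of genes with a pair of measured probe sets, and the gene mean of -0.15 describes neither. Each probe set kept its sign in all 5 other scalings that bring the arrays to a common level.

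Aldolase cuts fructose bisphosphate into triose phosphates, and the worm has 2 genes for it. Both probe sets of aldo-1 were lower in exposed worms, with signals of 1661 in controls and 1091 in exposed worms on one, and of 1763 and 1309 on the other. The gene mean was -0.52, or 1.43-fold lower, with probe sets at -0.61 and -0.43, and it lay at percentile 14.2 of all genes. This was the lowest value among the members, and across the other scalings it ran from -0.69 to -0.39. The probe set of aldo-2 had 6628 in controls and 6876 in exposed worms, a log2 ratio of 0.05 whose sign turned under quantile normalisation, loess centring and equal hybridisation controls. The ratio of aldo-1 was 0.57 below that of aldo-2, a gap that is larger than the median of 0.42 between probe sets of a single gene and well within its 95th percentile. All of these aldolase probe sets are of types that may bind similar transcripts, so aldo-1 and aldo-2 are uncertain as separate genes. Neither had a value when probe sets with a letter suffix were left out.

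Triose phosphate isomerase, encoded by tpi-1, interconverts the products of that cut. Probe set 175055_at had 379 in controls and 181 in exposed worms, 2.10-fold lower, with a log2 ratio of -1.07. Probe set 192783_at had 1359 in controls and 1750 in exposed worms, 1.29-fold higher, with a log2 ratio of 0.36. These also disagreed in direction, by 1.43 in log2, a larger gap than in 95.9% of genes with a pair of measured probe sets, and the gene mean was -0.35. Disagreement in direction is itself common on these arrays, since the pair lay on opposite sides of 0 in 681 of 1626 genes (41.9%), but gaps of this size are not. Counted by probe set, 2 of the 13 of the members were at least 2-fold lower, those 2 of pfk-1.1 and tpi-1, and 0 were at least 2-fold higher, beside 4.31% and 1.3% of the 11470 measured probe sets of single genes.

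**Figure D2:**
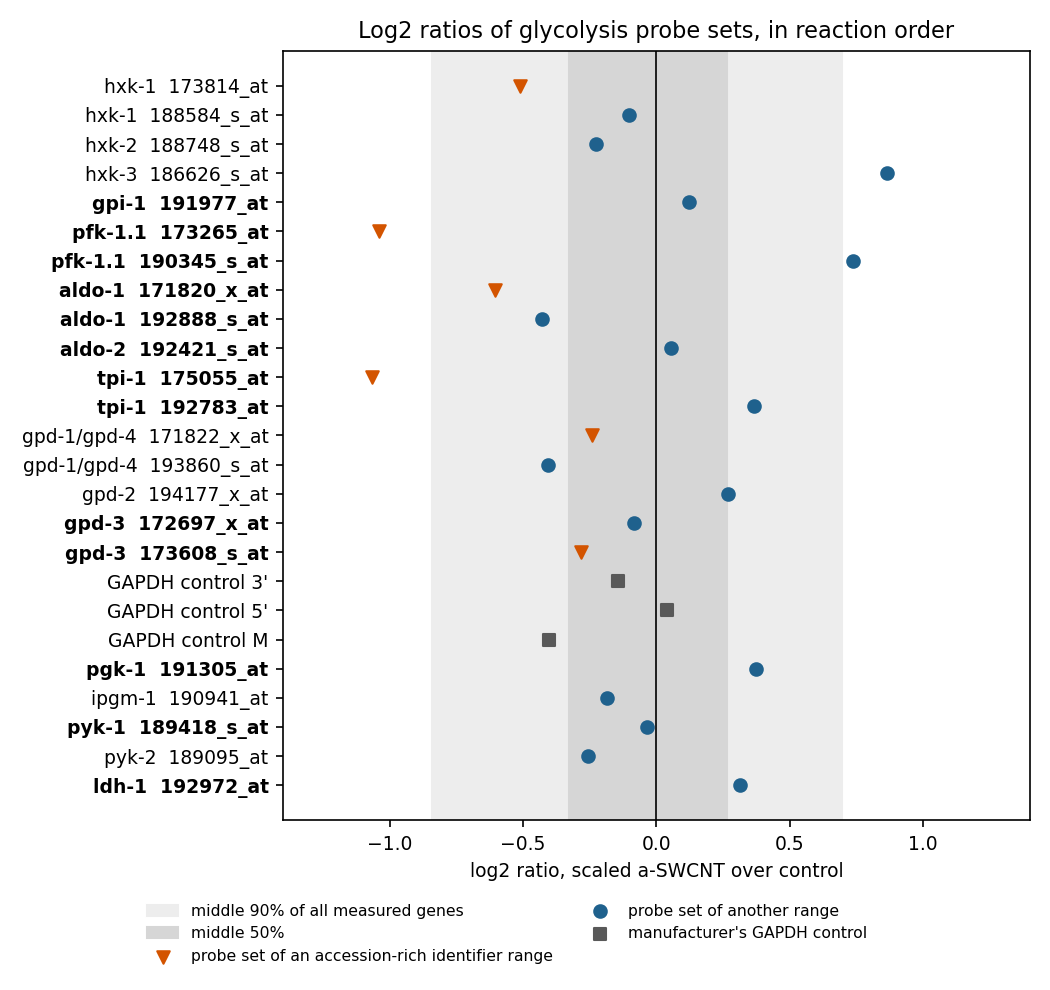
Log2 ratio of scaled a-SWCNT over control signal for each glycolysis probe set, in reaction order, with members in bold and 1 array per group; grey bands hold the middle 90% and 50% of all 9382 measured genes, and symbols mark identifier ranges rich in sequence accessions (orange triangles), other ranges (blue) and the manufacturer's GAPDH controls (squares). The ratios of -1.04 for pfk-1.1 and -1.07 for tpi-1 are the only member probe sets beyond 2-fold, and both are orange.

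The low probe sets shared a feature that was looked for after the values were seen. The platform's annotation gives a sequence accession for 45.8% to 75.7% of the probe sets whose identifiers begin with 171, 173, 174 or 175, and for at most 31.6% in any other range. In these ranges the median log2 ratio over 2326 measured probe sets was -0.28, against 0.02 over the 9144 others. Of the probe sets in these ranges 9.97% were at least 2-fold lower, against 2.87% of the others. Both member probe sets at least 2-fold lower came from these ranges. Among 1431 genes measured by both kinds, the probe sets from these ranges were the lower in 1028 (71.8%), with a median difference of -0.35. Of the members, 4 were measured by both kinds (pfk-1.1, aldo-1, tpi-1 and gpd-3), and in each of the 4 the probe set from these ranges was the lower. The gap was -1.78 for pfk-1.1, -1.43 for tpi-1, -0.20 for gpd-3 and -0.18 for aldo-1. In the pair of probe sets shared by gpd-1 and gpd-4 the order was the opposite. Without these ranges the median of the 9 members was 0.12, beside 0.02 for all 8650 genes then measured, with 3 below and 6 above 0 and with pfk-1.1 at 0.74 and tpi-1 at 0.36. The ratio of aldo-1 stayed below 0, at -0.43, on the probe set that was left. The part of the identifier range in the low values was not tested.

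**Figure D3:**
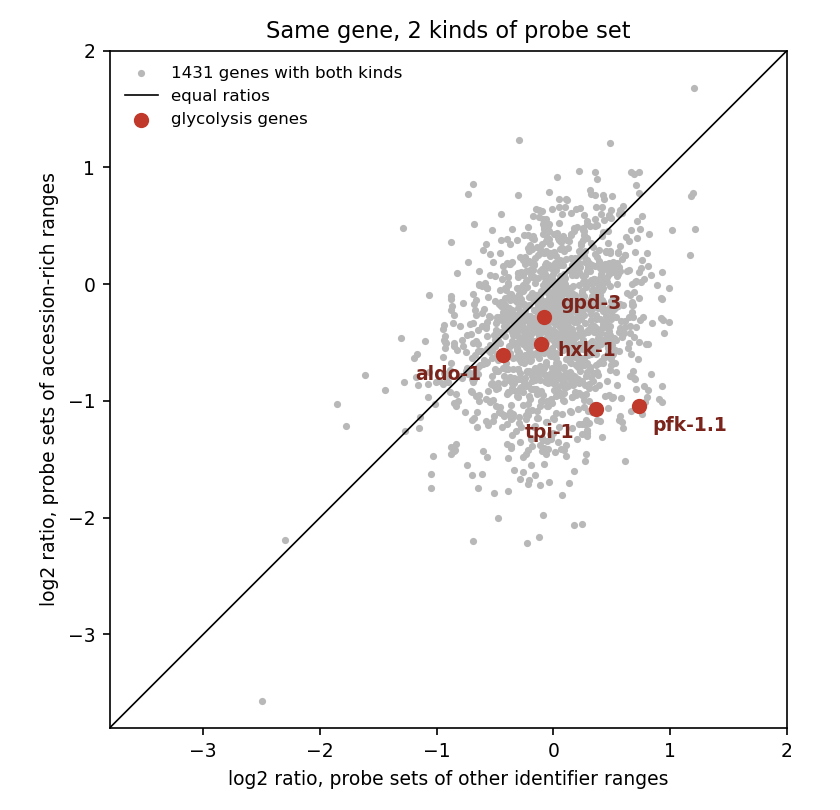
Mean log2 ratio of scaled a-SWCNT over control in each of 1431 genes measured by both kinds of probe set: those of other identifier ranges (horizontal axis) and those of ranges rich in sequence accessions (vertical axis), 1 array per group. The 5 marked glycolysis genes lie below the line of equal ratios, as do 71.8% of the genes, and pfk-1.1 and tpi-1 lie farthest below it among the 5.

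Glyceraldehyde phosphate dehydrogenase, GAPDH, oxidises the triose and is widely used as a reference transcript. Probe set 172697_x_at of gpd-3 had 8872 in controls and 8376 in exposed worms (log2 ratio -0.08), and 173608_s_at had 5765 and 4741 (-0.28). The gene mean of -0.18 was below 0 in all 5 other scalings, though 172697_x_at alone stood at 0.04 with equal 75th percentiles. The neighbouring gene gpd-2 encodes a nearly identical protein, and its probe set had 7688 in controls and 9264 in exposed worms, a log2 ratio of 0.27. All of these are of probe set types that may bind similar transcripts, so gpd-2 and gpd-3 are uncertain as separate genes. The probe sets shared by the other pair of copies, gpd-1 and gpd-4, had -0.24 and -0.40.

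The manufacturer also placed control probe sets for a worm GAPDH transcript on the array, at its 3′ end, middle and 5′ end. The 3′ probe set had 4624 in controls and 4189 in exposed worms, a log2 ratio of -0.14. The middle one had 7785 and 5884 (-0.40), and the 5′ one had 5935 and 6098 (0.04, with a sign that turned in 3 scalings). Which gpd gene they read is not given in the sources used here. The ratio of 3′ to 5′ signal, a measure of RNA integrity and labelling, was 0.78 in controls and 0.69 in exposed worms for GAPDH, 1.13 and 0.90 for actin, 2.41 and 1.96 for catalase, and 14.3 and 23.1 for ubiquitin. The last of these moved most between the arrays, and its part in the values of the members was not tested. With the scaling used no reading of GAPDH reached 1.5-fold, and together they ran from -0.40 to 0.27. The middle control probe set was the one that passed that size in another scaling, at -0.62.

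Phosphoglycerate kinase, encoded by pgk-1, makes the first ATP of the later steps. Its probe set had 1698 in controls and 2202 in exposed worms, 1.30-fold higher. At a log2 ratio of 0.37 it was the highest of the members, at percentile 82.4 of all genes, and it stayed above 0 in the other scalings (0.20 to 0.50). The mutase gene ipgm-1, which is not one of the 10, had 1423 and 1251 (-0.19).

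Pyruvate kinase makes pyruvate and the last ATP. The probe set of pyk-1 had 1075 in controls and 1049 in exposed worms, a log2 ratio of -0.04 whose sign turned when the arrays had equal medians or equal 75th percentiles. The ratio of pyk-1 was the nearest to 0 of the members. Its paralogue pyk-2 had 407 and 341 (-0.26). The lactate dehydrogenase gene ldh-1 had 820 in controls and 1019 in exposed worms, 1.24-fold higher, with a log2 ratio of 0.31 at percentile 78.3, above 0 in the other scalings (0.14 to 0.44).

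Ordered by step, the 5 genes from gpi-1 to tpi-1 had a median of -0.15 with 3 below 0, and the 4 measured genes from gpd-3 to ldh-1 had a median of 0.14 with 2 below 0. Without the accession-rich ranges these medians were 0.12 and 0.14, so the lower value of the early steps rested on the low probe sets of pfk-1.1 and tpi-1. The range within each segment, -0.52 to 0.12 and -0.18 to 0.37, was wider than the gap between their medians.

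**Figure D4:**
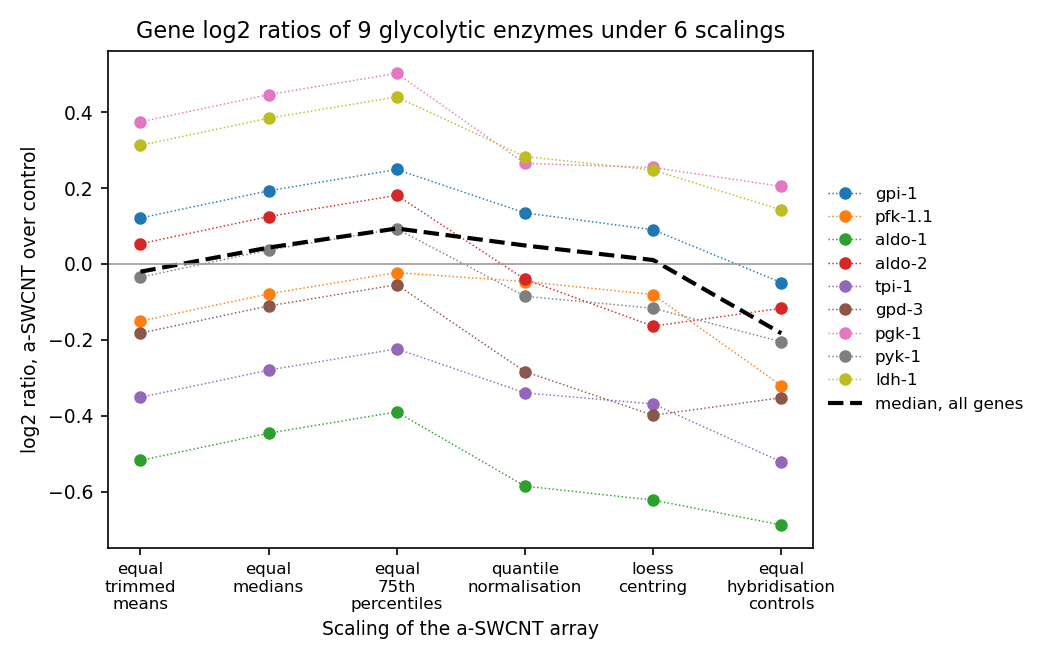
Gene log2 ratio of a-SWCNT over control for the 9 measured glycolytic enzymes under each of 6 scalings of the a-SWCNT array (dotted lines join the values of a gene), with the median of all measured genes as a dashed line; 1 array per group. In all 6, pgk-1 and ldh-1 are the highest members and lie above 0, and aldo-1 is the lowest, while gpi-1, aldo-2 and pyk-1 cross 0.

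None of the other measured genes of the pathway was 2-fold different, and hxk-3 had the largest ratio among them. Of the 9 listed beside the members, 6 were measured as single genes, 4 of them below and 2 above 0, with a median of -0.21 and 0 at 2-fold in either direction. The hexokinase genes, which phosphorylate glucose on entry, differed from each other. The probe sets of hxk-1 had log2 ratios of -0.51 and -0.10, of which the second turned with equal 75th percentiles, and the dim probe set of hxk-2 had 93.8 in controls and 80.2 in exposed worms (-0.23). In contrast, hxk-3 had 323 and 587, 1.82-fold higher, at percentile 97.5 of all genes and above 0 in the other scalings (0.69 to 0.99). The second phosphofructokinase gene, pfk-1.2, was below the floor on both arrays.

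Genes of the reverse pathway and of pathways linked to glycolysis also held no value at 2-fold. The 4 measured genes of gluconeogenesis, which makes glucose from smaller molecules, had a median of 0.17, or 0.11 without the accession-rich ranges. Among them the phosphoenolpyruvate carboxykinase genes pck-2 (3950 in controls and 4673 in exposed worms, 0.24) and pck-1 (0.16), and the fructose bisphosphatase gene fbp-1 (0.18), were above 0, with pck-1 turning under equal hybridisation controls. The pyruvate carboxylase gene pyc-1 stood at -0.05 and turned in 3 scalings. A list of 7 genes covered pyruvate dehydrogenase, which turns pyruvate into acetyl-CoA, its kinase and the carrier that brings pyruvate into mitochondria. Its median was 0.26, the value of the kinase gene pdhk-2, with 6 above 0. The genes of the enzyme itself were spread, with pdha-1 at -0.37, dlat-1 and dld-1 each at 0.04, and pdhb-1 at 0.52 (probe sets at 0.53 and 0.51). The ratio of dld-1 turned under quantile normalisation, loess centring and equal hybridisation controls. The mitochondrial pyruvate carrier gene mpc-1 had 0.48. In the pentose phosphate pathway, which branches off at glucose phosphate to make NADPH and ribose, 6 of 7 genes were above 0 at a median of 0.16, which turned with equal hybridisation controls. Its extremes were T25B9.9 (-0.50) and F08F8.7 (0.44).

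Glycogen and trehalose are the stored sugars of the worm. All 4 measured glycogen genes were below 0, at a median of -0.17, with the glycogenin gene gyg-1 lowest (395 in controls and 245 in exposed worms, -0.69) and the phosphorylase gene pygl-1 highest (-0.03, turning in 3 scalings). Without the accession-rich ranges 2 of 3 were below 0, at a median of -0.03. Of 8 trehalose genes 5 were below 0, at a median of -0.21, or -0.13 without those ranges, from the trehalase gene tre-1 (-0.61) and the synthase gene tps-1 (-0.55, with probe sets at 218 and 109 and at 223 and 207 in controls and exposed worms, the first of them from those ranges) to tre-2 (272 and 458, 0.75). Of the genes of ethanol oxidation and sugar transport 3 were measured, at a median of 0.07 that turned with equal hybridisation controls, from sodh-2 (-0.19) to swt-3 (0.20).

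HIF-1 is the hypoxia factor that raises several glycolytic genes when oxygen is low. Its own gene and egl-9, which encodes the enzyme that marks it for destruction, had no single-gene probe set. In the list of its pathway and targets, 7 of 8 measured genes were below 0, at a median of -0.40. The list pools regulators and targets of HIF-1, so its median is not a reading of HIF-1 activity. On the lower side 1 of the 8 was past 2-fold, beside 2.86% of all genes. This was rhy-1, a regulator and target of HIF-1 with 1 probe set, at 257 in controls and 120 in exposed worms, 2.14-fold lower. The collagen prolyl hydroxylase gene phy-2 had -0.60, and vhl-1, which encodes the ligase subunit that removes HIF-1, had 0.46. The median was -0.40 also without the accession-rich ranges.

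**Figure D5:**
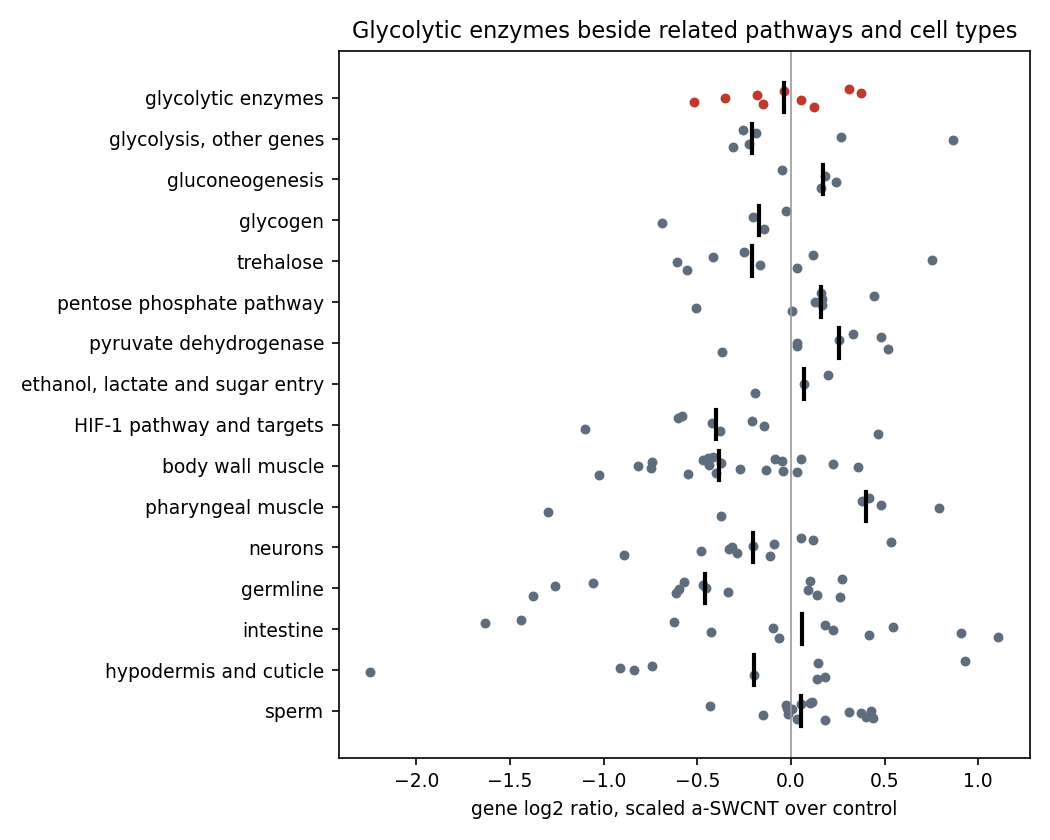
Gene log2 ratio of scaled a-SWCNT over control (points, 1 per measured gene) and list median (black bars) for the 9 measured glycolytic enzymes (red) and for related pathways and cell types (grey), 1 array per group. The enzymes span -0.52 to 0.37 around a median of -0.04, a narrower range than the germline, intestine and cuticle lists.

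Several lists of cell type markers spanned wider ranges than the enzymes, and their part in the values of the enzymes was not tested. Of all measured genes 4890 of 9382 were below 0, or 4178 of 8650 without the accession-rich ranges. Of 20 body wall muscle genes 16 were below 0, with a median of -0.38, or 12 of 18 at a median of -0.17 without those ranges. Their summed signal was 117673 in controls and 98948 in exposed worms. Summed signals here take in all single-gene probe sets of a list, those of the accession-rich ranges included. The ratios of the body wall muscle genes ran from the myosin gene unc-54 (-1.02) to tni-1 (0.36). Germline genes were below 0 in 9 of 14 cases, with a median of -0.46 and summed signals of 7913 and 5562, from gld-1 (-1.38) to puf-5 (0.28). Intestinal genes were split, 6 below and 6 above 0, with a median of 0.06 and summed signals of 34370 and 41645, from vit-2 (-1.63) to vha-6 (1.11). The medians were -0.20 for neurons (8 of 11 below 0, or 7 of 11 at a median of -0.13 without the accession-rich ranges, unc-64 at -0.89 to egl-3 at 0.53), -0.20 for hypodermis and cuticle (5 of 9 below 0, or 3 of 7 at a median of 0.01 without them, bli-1 at -2.25 to nhr-23 at 0.93), 0.40 for pharyngeal muscle (2 of 6 below 0, myo-2 at -1.30 to myo-5 at 0.79) and 0.05 for sperm (6 of 17 below 0, msp-74 at -0.43 to msp-31 at 0.44). Those of intestine and sperm turned in 3 scalings.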

How the data were processed

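Biotin-labelled cRNA from whole worms was put on 1 Affymetrix array for each of 2 groups, per the labels' protocols. The deposited values are signal intensities on a linear scale, made with MAS5 per the submitters' processing notes; its version, scaling target and detection calls are not given in the sources used here. The 2% trimmed mean over worm probe sets was 209 for controls and 83.3 for the a-SWCNT array, so the latter was multiplied by 2.50. Signals under the floor of 56.7 were raised to it before log2 ratios were taken.

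Symbols came from the platform annotation and were checked by gene identifier against RefSeq (WBcel235), where 20701 of 20766 single-gene probe sets matched and 0 symbols differed. Members, gene lists and settings were chosen with earlier results of these data known. Named genes are all members with their probe sets, all other glycolysis genes, up to 2 highest and 2 lowest of each pathway list and the extremes of each cell type list, among genes measured on both arrays. To these were added dlat-1 and pdhk-2 of the pyruvate dehydrogenase list. Alternatives were 6 other scalings (loess span 0.3), 3 floors, 3 choices of probe sets and thresholds of 1.5-fold and 3-fold. Leaving out the accession-rich identifier ranges (over 40% of probe sets with an accession) was added after the data were examined. Python 3.11.15, pandas 2.3.3 and statsmodels 0.14.6 were used. No sequences or coordinates are given.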

Additional observations from a re-analysis of the deposited data

How the results depend on the processing

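The median log2 ratio of the 9 glycolytic enzymes, -0.04, lay so near 0 that its sign followed the setting. It was 0.037 at equal medians, 0.093 at equal 75th percentiles and 0.12 with the brightest probe set of each gene, without letter-suffixed probe sets (5 genes left) or without the accession-rich identifier ranges. The median of all genes also moved, to 0.043 at equal medians, 0.093 at equal 75th percentiles and -0.18 at equal hybridisation controls. The median of the enzymes minus that of all genes was -0.015 with the scaling used. Among the scalings to a common level this difference ran from -0.13 (loess centring) to -0.0007 (equal 75th percentiles). In the signals as deposited the median of the enzymes was -1.36, beside -1.16 for all genes. There 8 of the enzyme genes were at least 2-fold lower, because the arrays were then not brought to a common level. Without letter-suffixed probe sets 1 gene, pfk-1.1, was at least 2-fold lower, since only its low probe set was left. Loess centring, quantile normalisation, equal hybridisation controls and the 3 other floors left the median of the enzymes between -0.21 and -0.04 with 0 of its genes at 2-fold. With the scaling and probe sets used, the counts at 1.5-fold and 3-fold were 0 in both directions. At 1.5-fold, aldo-1 was lower under quantile normalisation, loess centring and equal hybridisation controls, pfk-1.1 was higher (0.74) with the brightest probe set and without the accession-rich ranges, and lower without letter-suffixed probe sets, and all 9 were lower as deposited. With 1 array per group, differences between cultures cannot be measured and precision is limited by the number of arrays.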

Other observations

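The lower ratios of probe sets from the accession-rich identifier ranges were seen across the array and not in the glycolysis genes alone. The median log2 ratio was -0.25 for identifiers beginning with 171, -0.22 for 173, -0.37 for 174 and -0.22 for 175. It was 0.06 for 172 and 0.07 for 176, where 11.8% and 0% of probe sets had an accession, and between -0.02 and 0.07 in all 20 other ranges. In the 4 ranges 9.97% of measured probe sets passed 2-fold on the lower side and 0.43% on the higher side, against 2.87% and 1.52% in the others, so 232 of the 494 probe sets that were at least 2-fold lower came from 2326 of the 11470 measured. The list median of the hypodermis and cuticle genes was 0.01 without these ranges, with 7 genes left, and that of the germline genes -0.47 with 13.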
